A study of Mus musculus with 2 samples.

Results

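The store-operated and TRP-family calcium channel genes were 10 of the 32285 genes in the table, chosen by symbol: the calcium sensors Stim1 and Stim2, the pore genes Orai1, Orai2 and Orai3, the TRP channel Trpc6, the polycystins Pkd1 and Pkd2, and the inositol trisphosphate receptors Itpr1 and Itpr3. All 10 were among the 12132 genes with at least 2 UMIs per 1000000 (CPM) over all cells, so none was lost to a filter on low levels. Itpr1 and Itpr3 encode channels that release calcium from the endoplasmic reticulum, and are neither store-operated channels nor TRP channels, so the name of the set does not describe them. Their relative Itpr2 is described beside them.

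Store-operated calcium entry begins when a receptor at the cell surface activates phospholipase C, which makes inositol trisphosphate. That messenger opens the Itpr channels and empties the endoplasmic reticulum. Stim proteins in its membrane sense the loss of calcium, move to the plasma membrane and open Orai channels there. Trpc6 is a receptor-operated cation channel opened by diacylglycerol, the other product of phospholipase C, and the polycystins form a receptor and channel pair best known from kidney cilia. In vascular smooth muscle cells (VSMCs) these routes refill the stores and feed calcium to calmodulin, calcineurin and the contractile machinery.

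The cells were primary aortic VSMCs from C57BL/6 mice, bought from vendors and grown for few passages. Cells of young mice (12 weeks), cells of old mice (58 to 78 weeks), young cells treated with angiotensin II (AngII, 100 nM, 48 h) and old cells transfected with siRNA against Piezo1 (siPiezo1, 20 nM) were each stained with their own antibody hashtag and mixed into 1 droplet library. In other assays of the study the old cells received a non-targeting siRNA. The sources do not say so of the sequenced old cells. No replicate cultures are told apart. The labels do not pair hashtags with groups. Tag 1 is young, tag 2 old, tag 3 young + AngII and tag 4 old + siPiezo1 only by the numbers of the groups in the study's schematic, so values are given by tag.

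The pool held 13045 cells with 115033686 UMIs and a median of 7915 UMIs per cell. Of these, 6670 cells carried exactly 1 tag: 3144 with tag 1, 497 with tag 2, 1500 with tag 3 and 1529 with tag 4. The tags stood apart in other ways. Median UMIs per cell were 6816 in tag 1 and 9453 to 10663 in the other 3 tags. The 6 interferon response genes summed to 2646 CPM in tag 1, 270 CPM in tag 3 and 72.6 and 83.9 CPM in tags 2 and 4, and the median share of mitochondrial UMIs was 0.224% in tag 3 and 1.08% to 1.86% elsewhere. Y-linked UMIs without Xist were found in 54.1% and 55.5% of cells of tags 1 and 3 and in 19.5% and 13.8% of cells of tags 2 and 4, so donor sex and the age in the tag's name cannot be told apart, except among cells of 1 sex. The siRNA's target Piezo1 had 89.6 CPM in tag 2 and 86.9 CPM in tag 4 (ratio 0.969, 95% interval 0.874 to 1.08), so it did not check the name of tag 4. All 8 VSMC markers were detected in every tag (summed level 1018 to 2130 CPM), but Myh11 was at only 5.27, 7.89, 1.94 and 3.6 CPM in tags 1 to 4. The markers of endothelial cells and macrophages had low sums (10.1 to 18.5 and 6.15 to 11.7 CPM). Some of them lay above Myh11 in the same tag, such as Egfl7 (14 CPM in tag 4) and Csf1r (8.62 CPM in tag 1). The 6 fibroblast markers summed to 529, 555, 725 and 766 CPM in tags 1 to 4, of which Dcn gave 448, 506, 669 and 676 CPM. Pdgfra gave 63.8, 31, 34.7 and 57.2 CPM. The 8 markers of dividing cells summed to 678, 650, 424 and 723 CPM. The part of these differences in the levels below was not tested.

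Levels are CPM, the UMIs of a gene per 1000000 UMIs summed over the cells of a tag, with exact Poisson 95% intervals. For a share of cells the interval is the exact Clopper-Pearson one, also at 95%. Since no replicate cultures are told apart, there is no test. Intervals of levels, shares and ratios cover counting error only, and whether a difference exceeds the spread between cultures is not known. Free RNA was estimated from barcodes with 1 to 100 UMIs, and levels in cells were not corrected for it. It held Stim1 at 42.9 CPM, Orai2 at 11 CPM, Pkd1 at 25.8 CPM and Itpr1 at 34.8 CPM, each above at least 1 tag. Stim2 was at 26.7 CPM, Orai1 at 21.5 CPM and Orai3 at 9.54 CPM, below every tag. Trpc6, Pkd2 and Itpr3 are given below. No cell type known to lack the 10 genes was at hand, so a share of cells with a UMI is given beside the CPM and not read as expression by itself.

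Stim1, the main sensor of store depletion (chr7:102267806-102437319, plus strand, in GRCm38), was at 56.1 CPM (53.1 to 59.2) in tag 1, 43.7 CPM (38.4 to 49.6) in tag 2, 85.2 CPM (80.6 to 90) in tag 3 and 36.8 CPM (33.9 to 39.8) in tag 4. Tag 3 stood above the other 3, and the interval of each neighbouring pair's ratio in the order 4, 2, 1, 3 left out 1. From the lowest to the highest tag the level differed 2.32-fold (2.1 to 2.56). At least 1 Stim1 UMI was found in 30.8%, 35.2%, 49.7% and 28.3% of cells of tags 1 to 4. When 5000 UMIs were drawn from every cell and the 747, 21, 136 and 114 shallower cells of tags 1 to 4 were dropped, these shares became 22.7%, 18.5%, 32.3% and 15.2%, in the order of the CPM. The higher raw share of tag 2 over tag 1 went against the CPM and is not read as a difference.

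Stim2, the sensor that responds to smaller losses of stored calcium (chr5:53998499-54121057, plus strand), was at 27.7 CPM (25.6 to 29.8) in tag 1, 33.5 CPM (28.9 to 38.7) in tag 2, 42.7 CPM (39.5 to 46.2) in tag 3 and 32.7 CPM (30 to 35.6) in tag 4. It was lowest in tag 1 and highest in tag 3, while tags 2 and 4 were not told apart (ratio 1.02, 0.863 to 1.21). Stim2 made up 33% (31 to 35.1) of the UMIs of both sensors for tag 1, a value that tag 3 matched with 33.4% (31.3 to 35.6). For tag 2 it made up 43.4% (38.7 to 48.2), and for tag 4 47.1% (44.1 to 50.1). The balance of the sensors thus separated tags 2 and 4 from tags 1 and 3 while the level of Stim2 did not. A higher level of both sensors in tag 3 left their balance where it was in tag 1.

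**Figure D1:**
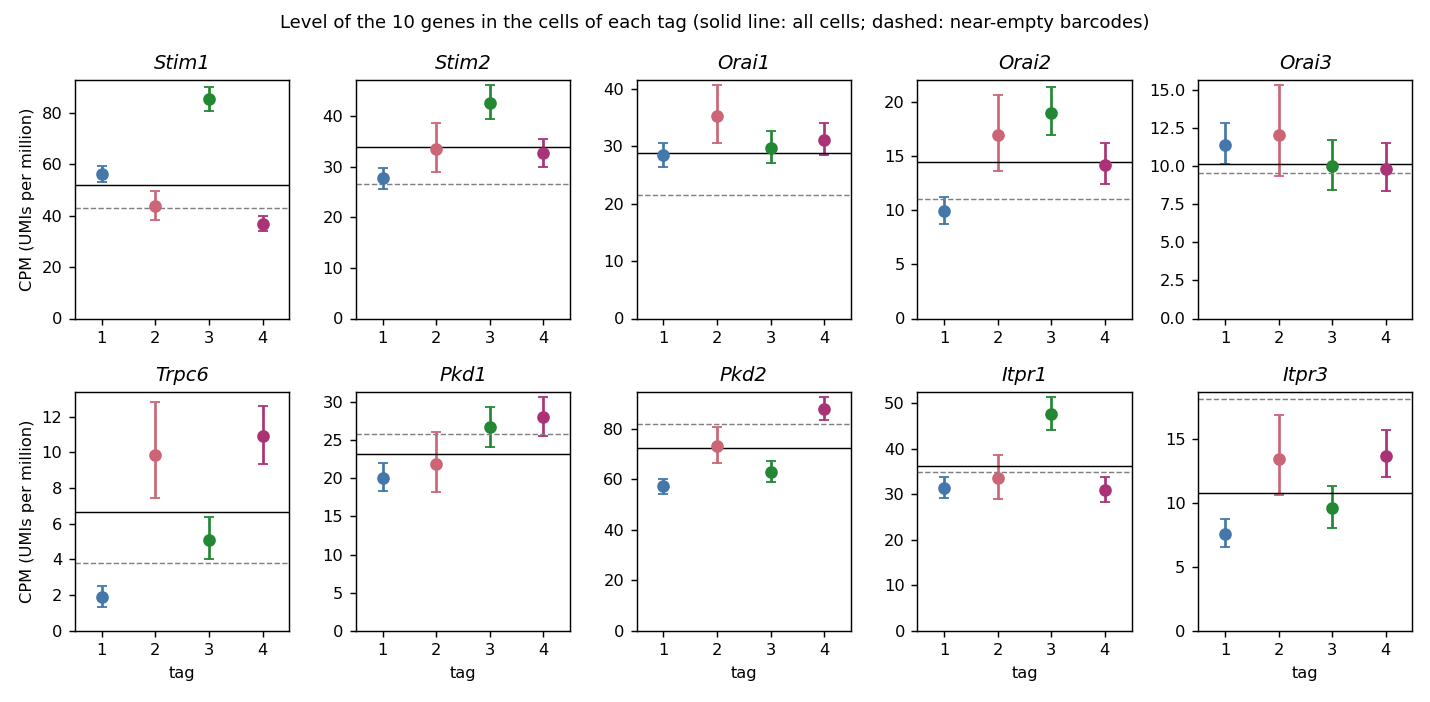
Level of each of the 10 genes in CPM on linear axes from 0, by tag, with exact Poisson 95% intervals; the solid line is the level over all cells and the dashed line that of near-empty barcodes. Stim1, Stim2 and Itpr1 are highest in tag 3, Trpc6 and Itpr3 are lowest in tag 1, and Orai3 is nearly level.

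Orai1, the principal pore of store-operated entry (chr5:123015074-123030456, plus strand), was at 28.4 CPM (26.3 to 30.6) in tag 1, 35.3 CPM (30.6 to 40.6) in tag 2, 29.7 CPM (27 to 32.6) in tag 3 and 31.1 CPM (28.4 to 34) in tag 4. From low to high the order was tags 1, 3, 4 and 2. No neighbouring pair in that order differed beyond counting error, and tag 2 was 1.25-fold (1.06 to 1.46) above tag 1. Orai3, a pore gene whose product joins Orai1 in channels gated by arachidonic acid products (chr7:127769815-127775150, plus strand), was at 11.4 CPM (10.1 to 12.8), 12 CPM (9.31 to 15.3), 9.98 CPM (8.44 to 11.7) and 9.81 CPM (8.34 to 11.5) in tags 1 to 4. Even its highest and lowest tags were not told apart at this depth (ratio 1.22, 0.906 to 1.64).

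Orai2, which tempers calcium entry through mixed channels with Orai1 in immune cells (chr5:136147459-136170713, minus strand), behaved otherwise. It was at 9.91 CPM (8.69 to 11.2) in tag 1, 16.9 CPM (13.6 to 20.6) in tag 2, 19 CPM (16.9 to 21.4) in tag 3 and 14.2 CPM (12.4 to 16.2) in tag 4. Tag 1 lay below the other 3 tags. The interval of tag 2 overlapped those of tags 3 and 4, which did not overlap each other. Its share of the Orai UMIs was 20% (17.7 to 22.3), 26.3% (21.8 to 31.1), 32.4% (29.3 to 35.6) and 25.8% (22.9 to 28.8) over tags 1 to 4. Thinned to 5000 UMIs, Orai2 was found in 4.67% of cells of tag 1 and 9.09% of cells of tag 3.

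Trpc6 (chr9:8544142-8680741, plus strand) varied most among the 10 genes, and rested on the fewest counts. It had 45 UMIs in tag 1, 55 in tag 2, 76 in tag 3 and 175 in tag 4, or 1.87 CPM (1.36 to 2.5), 9.86 CPM (7.43 to 12.8), 5.09 CPM (4.01 to 6.37) and 10.9 CPM (9.32 to 12.6). Tags 2 and 4 did not differ beyond counting error (ratio 1.1, 0.81 to 1.52), tag 3 lay between, and tag 1 was lowest. In near-empty barcodes the level was 3.82 CPM (1.65 to 7.52) on 8 UMIs, an interval that held the levels of tags 1 and 3. Thinned to 5000 UMIs, 0.96% (0.609 to 1.44), 3.57% (2.09 to 5.66), 1.91% (1.25 to 2.78) and 4.1% (3.13 to 5.27) of cells of tags 1 to 4 had a Trpc6 UMI.

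Pkd2, the polycystin that forms the TRP-type pore (chr5:104459450-104505819, plus strand), was at 57.2 CPM (54.2 to 60.3) in tag 1, 73.3 CPM (66.4 to 80.8) in tag 2, 62.9 CPM (59 to 67.1) in tag 3 and 88 CPM (83.5 to 92.7) in tag 4. Every step in the order 1, 3, 2, 4 left out 1, with ratios of 1.1, 1.17 and 1.2. The gene lies 18400 bases downstream of Spp1 on the same strand, and Spp1, which encodes the secreted phosphoprotein osteopontin, followed the same order at 3418, 5782, 8229 and 9233 CPM in tags 1, 3, 2 and 4. Trpc6 and Itpr3, which lie on other chromosomes, had this order of tags too. The part of Spp1 in the Pkd2 counts was not tested. Free RNA held Pkd2 at 82.1 CPM (70.3 to 95.3), above tags 1 and 3.

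Pkd1, the large receptor-like partner of Pkd2 (chr17:24549834-24596508, plus strand), was at 20.1 CPM (18.4 to 22), 21.9 CPM (18.2 to 26.1), 26.7 CPM (24.1 to 29.4) and 28 CPM (25.5 to 30.7) in tags 1 to 4. No neighbouring pair differed beyond counting error, but tag 4 was 1.39-fold (1.22 to 1.58) above tag 1. Its last 693 bases overlap Tsc2 on the other strand, which was at 18.2 CPM in the pool. Whether strand was used in counting was not given in the sources. Pkd2 made up 74%, 77%, 70.3% and 75.9% of the UMIs of the pair in tags 1 to 4, a narrow range with tag 3 lowest.

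Itpr1, the release channel usual in smooth muscle (chr6:108213096-108551109, plus strand), was at 31.4 CPM (29.2 to 33.7) in tag 1, 33.5 CPM (28.9 to 38.7) in tag 2, 47.7 CPM (44.2 to 51.3) in tag 3 and 31 CPM (28.3 to 33.8) in tag 4. Only tag 3 stood apart, at 1.42-fold (1.21 to 1.68) over tag 2, the next highest. Itpr3, the isoform better known from epithelial cells (chr17:27057304-27122223, plus strand), was at 7.59 CPM (6.53 to 8.77), 13.4 CPM (10.6 to 16.9), 9.58 CPM (8.07 to 11.3) and 13.7 CPM (12 to 15.7) in tags 1 to 4. The order 1, 3, 2, 4 was that of Trpc6 and Pkd2, and tags 2 and 4 were not told apart (ratio 1.02, 0.782 to 1.34). Its level in near-empty barcodes, 18.1 CPM (12.8 to 24.9), was above the pooled level of 10.8 CPM in cells.

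Among the UMIs of all 3 receptor isoforms, Itpr3 took 9.64% (8.35 to 11.1) and 10% (8.51 to 11.7) for tags 1 and 3, against 16.8% (13.5 to 20.6) and 18.5% (16.3 to 20.8) for tags 2 and 4. Itpr2, the isoform most sensitive to its ligand, took 50.5% (48.2 to 52.7) in tag 1 and 39.7% to 41.3% in the other 3 tags. Itpr1 took 49.9% (47.2 to 52.5) in tag 3 and 39.9% to 41.9% in the others. Tags 2 and 4 were alike in make-up for each of the 4 families, with intervals that overlapped for every gene.

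**Figure D2:**
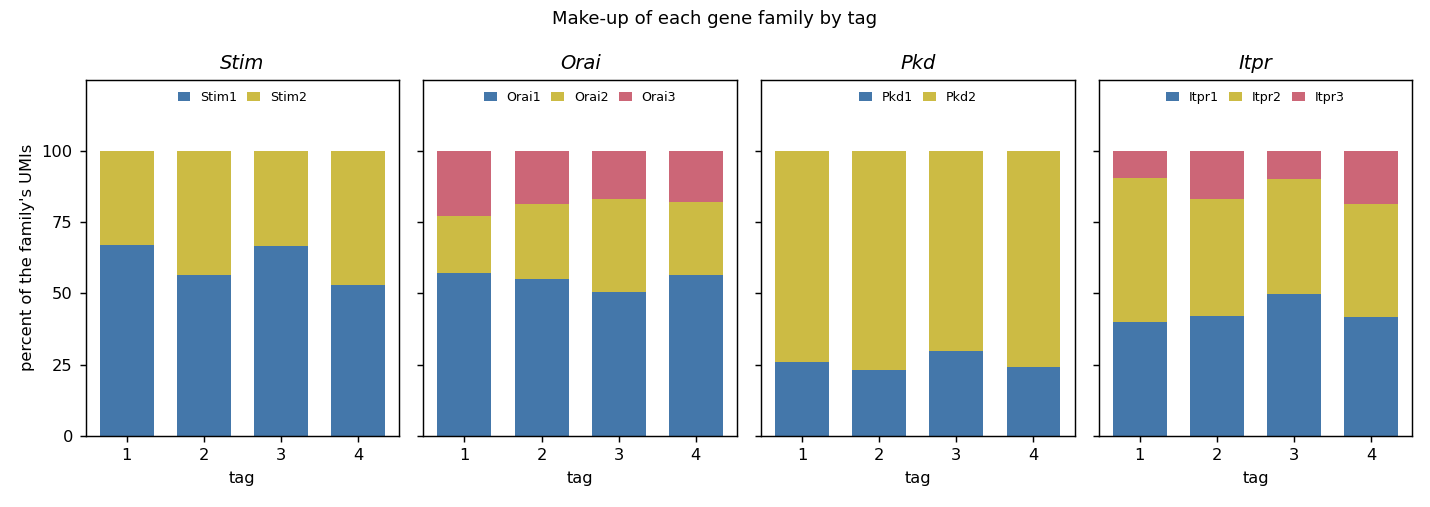
Percent of the UMIs of each family (vertical axis, stacked to 100) held by each of its genes, by tag. Stim2 holds 43.4% and 47.1% in tags 2 and 4 against 33% and 33.4% in tags 1 and 3, and Itpr3 holds 16.8% and 18.5% against 9.64% and 10%.

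The comparison of tag 2 with tag 1 stands for old against young cells if the schematic numbers the tags. In all, 3 genes were at least 1.5-fold higher in tag 2 and 0 were lower by that fold, where 11.5% of all 12132 genes were higher and 12.7% lower. They were Trpc6 (ratio 5.29, 3.5 to 8.02), Itpr3 (1.77, 1.34 to 2.33) and Orai2 (1.7, 1.33 to 2.17). Stim1 was the only gene below 1, at 0.78 (0.678 to 0.894), but its interval held 1 with the cutoffs for a tag doubled (0.984, 0.788 to 1.22) and among cells with only Y-linked UMIs (0.802, 0.597 to 1.06). Ratios of Pkd2 (1.28, 1.15 to 1.43), Orai1 (1.25, 1.06 to 1.46) and Stim2 (1.21, 1.03 to 1.43) were above 1 by less than 1.5-fold, and those of Pkd1, Itpr1 and Orai3 (1.06 to 1.09) were not told from 1. With doubled cutoffs the interval also held 1 for Itpr3 (1.55, 0.927 to 2.46), Orai1 (1.23, 0.93 to 1.61) and Pkd2 (1.12, 0.911 to 1.36). Among cells with only Y-linked UMIs it held 1 for Orai1 (1.27, 0.907 to 1.75), Stim2 (1.31, 0.935 to 1.8) and Pkd2 (1.26, 0.986 to 1.59). The median log2 ratio over the 10 genes was 0.30, against 0.03 over all genes tested. The Trpc6 ratio was 11.1 (6.07 to 21.4) without doublet calls and 12.7 (4.9 to 33.4) among cells with only Y-linked UMIs, on 11 and 10 Trpc6 UMIs.

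The promoters of the 3 genes that were higher together in tag 2 are shown to let their sequences be compared, with the bases of each CpG in capitals. RefSeq promoters of GRCm38.p6 were found for 9 of the 10 genes, and Itpr1 had none. Each sequence runs 5′ to 3′ on the strand of its gene and stops before the first annotated base: Orai2 at chr5:136170714-136170906, minus strand, Trpc6 at chr9:8543892-8544141, plus strand, and Itpr3 at chr17:27057054-27057303, plus strand.
Orai2: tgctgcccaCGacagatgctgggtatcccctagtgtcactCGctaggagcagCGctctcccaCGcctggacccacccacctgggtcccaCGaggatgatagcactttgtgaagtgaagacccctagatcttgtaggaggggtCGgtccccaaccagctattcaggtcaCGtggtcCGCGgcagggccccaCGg
Trpc6: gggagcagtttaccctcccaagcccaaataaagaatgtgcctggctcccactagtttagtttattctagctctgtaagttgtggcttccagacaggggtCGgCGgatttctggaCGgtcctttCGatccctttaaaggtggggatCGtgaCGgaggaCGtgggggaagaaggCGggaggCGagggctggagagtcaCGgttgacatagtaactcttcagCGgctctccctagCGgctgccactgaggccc
Itpr3: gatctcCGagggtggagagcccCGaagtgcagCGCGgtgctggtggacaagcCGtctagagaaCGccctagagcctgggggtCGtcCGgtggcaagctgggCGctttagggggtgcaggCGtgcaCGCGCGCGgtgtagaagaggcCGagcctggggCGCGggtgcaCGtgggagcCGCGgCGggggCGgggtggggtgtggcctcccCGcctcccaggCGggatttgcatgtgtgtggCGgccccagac
In the full windows of 250 bases before to 50 after the start, Orai2 had 24 CpG, Trpc6 17 and Itpr3 30, and the median of 32851 promoters was 7. The sensor and pore genes Stim1, Stim2 and Orai1 had 38, 39 and 36 CpG, more than 95%, 95.6% and 93.8% of promoters, while Pkd2 had 9 and Orai3 11. Of motifs searched on both strands, GGAAA, the core that NFAT factors recognise, was in the windows of Orai2, Orai3 and Pkd2 and in 61.3% of all promoters. The interferon-stimulated response element, searched as a pair of GAAA with any 2 bases between them, was in none of the 9 windows and in 3.44% of all promoters, and TATAAA was in none of the 9 and in 13.6%.

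The comparison of tag 3 with tag 1, AngII-treated against untreated young cells by the schematic, shares the cells of tag 1 with the one above. In all, 5 genes were at least 1.5-fold higher and 0 were lower by that fold, against 8.44% of all genes higher and 10.3% lower. These were Trpc6 (ratio 2.73, 1.86 to 4.04), Orai2 (1.92, 1.61 to 2.29), Stim2 (1.54, 1.38 to 1.72), Stim1 (1.52, 1.41 to 1.64) and Itpr1 (1.52, 1.37 to 1.69). The last 3 lay at the edge of the threshold, and the count fell to 2 when ratios were divided by the median ratio of 1.04 over 3287 genes, and to 3 among cells with at least 5000 UMIs. Among cells with only Y-linked UMIs it was 7, with Pkd1 (1.59, 1.33 to 1.91) and Itpr3 (1.51, 1.12 to 2.02) added. The shares of all genes past the fold under these alternatives were not computed. Pkd1 was at 1.32 (1.16 to 1.51) and Itpr3 at 1.26 (1.01 to 1.58), while Orai1 (1.05, 0.928 to 1.18) and Orai3 (0.878, 0.715 to 1.08) were not told from 1. The median log2 ratio of the 10 genes was 0.50, against 0.03 over all genes. The Trpc6 ratio was 6.21 (3.49 to 11.7) without doublet calls and 6.6 (3.26 to 14.8) among cells with only Y-linked UMIs. Among cells with 1% to 10% mitochondrial UMIs it was 4.48 (2.53 to 8.05), and that of Itpr1 was 1.74 (1.47 to 2.06).

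Tag 4 against tag 2 is the comparison of siPiezo1-transfected with control old cells, by the schematic, and shares the cells of tag 2 with the first. No gene of the 10 was past 1.5-fold in either direction (0 higher, 0 lower), and 4.8% of all genes were higher and 3.06% lower. Ratios ran from 0.817 (0.61 to 1.1) for Orai3 to 1.28 (1.05 to 1.58) for Pkd1. Of the intervals, 3 left out 1: those of Pkd1, of Pkd2 (1.2, 1.07 to 1.34) and of Stim1 (0.84, 0.723 to 0.979). The share of all genes whose interval leaves out 1 was not computed, here or within clusters. Among cells with 1% to 10% mitochondrial UMIs the interval held 1 for Stim1 (0.925, 0.765 to 1.12) and Pkd1 (1.16, 0.914 to 1.48), but not for Pkd2 (1.22, 1.08 to 1.39). For Pkd1 it also held 1 when the own tag had to be 3 times the next (1.3, 0.938 to 1.84). The median log2 ratio was -0.07, against 0.02 over all genes. The mechanosensitive channel genes that the study is about gave Piezo1 at 71.6, 89.6, 108 and 86.9 CPM and Piezo2 at 30, 23.1, 42.7 and 17.8 CPM in tags 1 to 4. Both were highest in tag 3, as Stim1, Stim2, Orai2 and Itpr1 were.

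**Figure D3:**
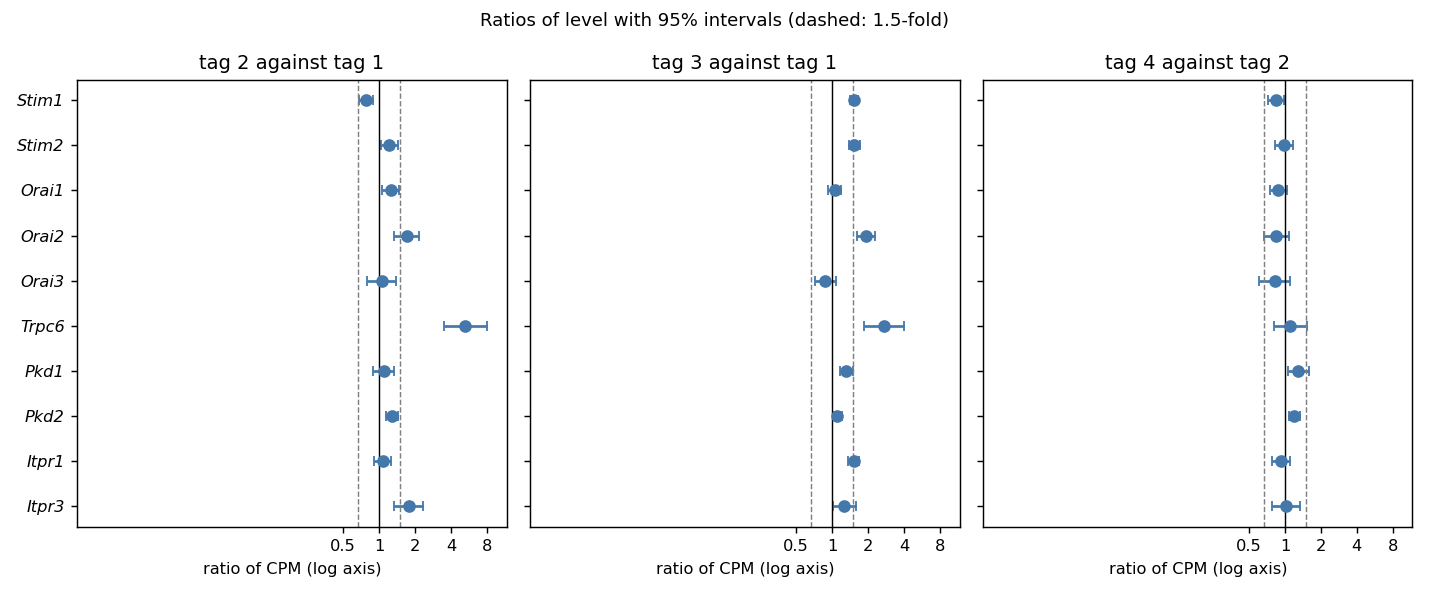
Ratio of CPM (horizontal log axis) of each gene in the 3 comparisons, with 95% intervals from the exact binomial of both counts; dashed lines mark 1.5-fold. Trpc6 lies at 5.29 and 2.73 in the comparisons with tag 1 and at 1.1 between tags 4 and 2, where every gene lies within 1.5-fold.

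Clusters of cells, built without the 10 genes and the other calcium genes examined here, placed the tags in different cell states. Of the 13 clusters, 4 drew over 50% of their cells from tag 1 and held 2902 of its 3144 cells: cluster 1 (1921 cells), led by the interferon response genes Ifit3, Ifit1 and Rsad2, cluster 5 (820 cells), cluster 6 (570 cells) and cluster 11 (180 cells). Tag 3 lay mainly in clusters 3 and 4 (58.7% and 26.3% of its cells), and tags 2 and 4 shared cluster 0 (57.9% and 39.5%), led by Nxph1, Clu and Igfbp5, and the dividing cell-like cluster 2 (22.5% and 24.5%), led by Hist1h1b, Mki67 and Top2a. Cluster and tag were therefore largely the same split for tags 1 and 3, and levels by cluster are descriptions.

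Trpc6 was nearly absent from the clusters of tag 1. It had 2 UMIs among the 1921 cells of cluster 1 (0.159 CPM, 0.0193 to 0.575), 2 UMIs in cluster 6 (0.437 CPM) and 1 UMI in cluster 11 (0.636 CPM). Cluster 5, of which 82.3% were doublet calls, had 4.25 CPM (3.04 to 5.79). Without doublet calls, the cells of tag 1 in these clusters held 3 Trpc6 UMIs among 2319 cells, or 0.192 CPM (0.0395 to 0.56). The 242 cells of tag 1 in the other clusters held 20 UMIs, or 8.67 CPM (5.29 to 13.4), which overlaps the levels of tags 2 and 4. The low level of tag 1 thus lay in its own clusters, and 20 of its 45 Trpc6 UMIs came from 242 cells outside them. Whether those cells carry the wrong tag was not tested.

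Other genes split less within tag 1. Orai2 was at 9.26 CPM (8.03 to 10.6) in the clusters of tag 1 and 16 CPM (11.3 to 22.1) in its other cells, and Stim2 at 27 CPM (24.9 to 29.3) and 33.8 CPM (26.7 to 42.2). Stim1 was at 56.3 CPM (53.2 to 59.6) and 53.7 CPM (44.7 to 64.1), and Itpr1 at 31.3 CPM (29 to 33.7) and 32.5 CPM (25.6 to 40.7). Stim1 was not level among the clusters of tag 1, with 50 CPM (46.2 to 54.1) in cluster 1 against 72.7 CPM (65.1 to 80.9) in cluster 6, whose cells carry dividing cell genes. Clusters 0 and 2, the non-dividing and dividing clusters of tags 2 and 4, had Stim1 at 38.2 CPM (35.8 to 40.6) and 39.5 CPM (36.6 to 42.4).

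**Figure D4:**
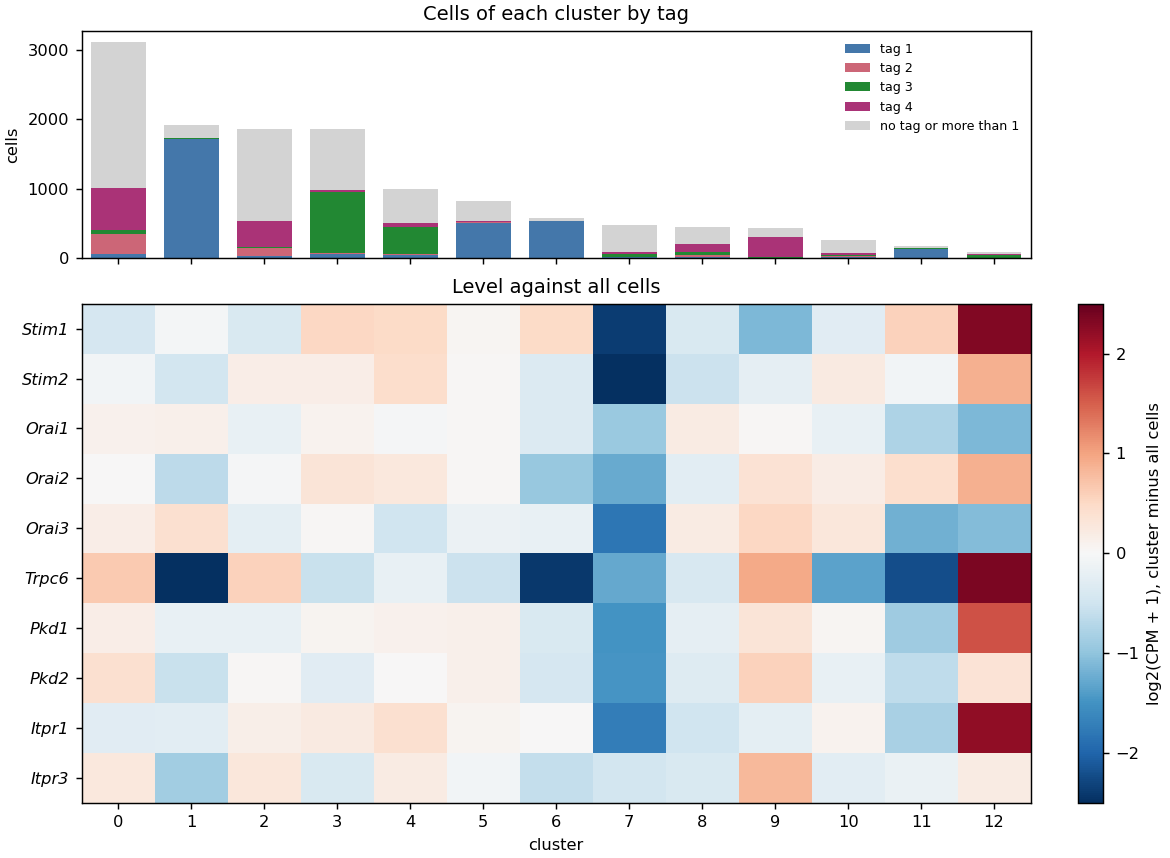
Cells of each of the 13 clusters by tag (top, stacked counts) and, below, the level of each gene in each cluster as the log2(CPM + 1) of the cluster minus that of all cells. Trpc6 is at 0.159, 0.437 and 0.636 CPM in clusters 1, 6 and 11, all genes are low in cluster 7, and Stim1, Trpc6 and Itpr1 are highest in cluster 12.

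Cluster 9 (440 cells, 288 of them from tag 4), led by Lmo7, Slpi and Dio2, held the highest level of several genes among the 11 clusters of at least 200 cells. Trpc6 was at 13.7 CPM (10.2 to 18), Itpr3 at 19.7 CPM (15.4 to 24.8), Pkd2 at 108 CPM (98 to 120), Pkd1 at 29.3 CPM (24 to 35.4), Orai2 at 18.9 CPM (14.7 to 23.9) and Orai3 at 14.8 CPM (11.1 to 19.3). Stim1 in the same cells was at 23.3 CPM (18.6 to 28.8), lower than in every other cluster but cluster 7. VSMC markers summed to 537 CPM there, against 1582 CPM in cluster 0. Of the genes highest in cluster 9, only Itpr3 had an interval clear of the next highest of the 11 clusters (cluster 2, 13.3 CPM, 11.7 to 15). Cluster 0 came next for Trpc6 (11.1 CPM, 9.85 to 12.5), Pkd2 (96.4 CPM, 92.6 to 100) and Pkd1 (26 CPM, 24.1 to 28), with overlapping intervals. Those of Orai2 and Orai3 overlapped the intervals of cluster 3 (18.3 CPM, 16.4 to 20.5) and cluster 1 (13.6 CPM, 11.6 to 15.8).

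Cluster 7 (480 cells) was shallow, with a median of 3360 UMIs, and held the lowest level of 8 of the 10 genes among the 11 clusters. Stim2 was at 3.78 CPM (1.52 to 7.79) and Stim1 at 9.18 CPM (5.35 to 14.7), while Orai1 kept 14.6 CPM (9.61 to 21.2). Its part in the levels by tag was small, since at most 2.27% of a tag's cells were in it. At the other end, the 93 cells of cluster 12, 46 of them from tag 3, held Stim1 at 261 CPM (217 to 311), Itpr1 at 171 CPM (135 to 212), Pkd1 at 71.6 CPM (49.6 to 100) and Trpc6 at 37.9 CPM (22.5 to 59.9). Orai1 (12.6 CPM, 4.64 to 27.5) and Orai3 (4.21 CPM, 0.51 to 15.2) were not high in these cells. Leading genes of the cluster included Zfp804a, Npas3 and Lama2, and its median depth was 4179 UMIs.

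**Figure D5:**
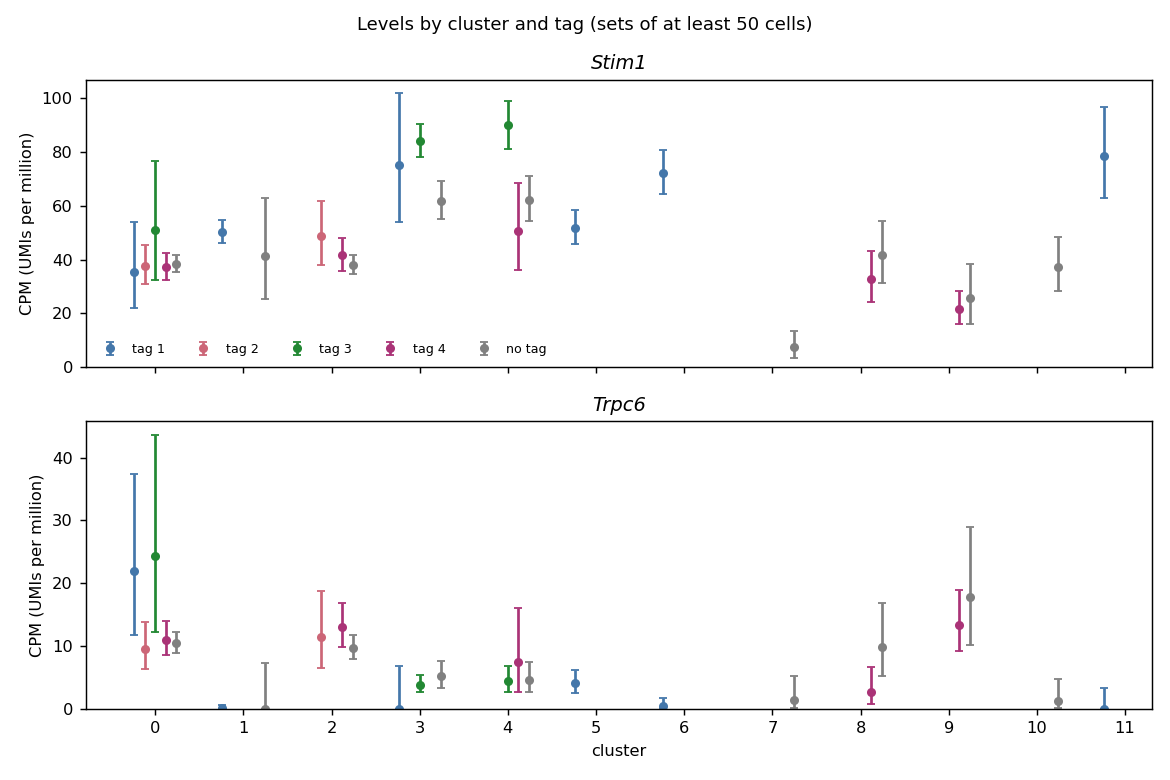
Level of Stim1 (top) and Trpc6 (bottom) in CPM by cluster, for each tag and for cells without a tag, in sets of at least 50 cells, with exact Poisson 95% intervals. In clusters 0 and 2 the intervals of the tags overlap. Trpc6 in cluster 0 is at 21.9 CPM (11.7 to 37.4) in the 64 cells of tag 1. In the 56 cells of tag 3 there it is at 24.4 CPM (12.2 to 43.6). Tags 2 and 4 are lower there, at 9.56 CPM (6.35 to 13.8) and 11 CPM (8.53 to 14), unlike the order over all cells. Ratios within a cluster were computed only for tag 4 against tag 2. The 1721 cells of tag 1 in cluster 1 are at 0.178 CPM.

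Tags 2 and 4 were compared within clusters 0 and 2, which held at least 100 cells of both. In cluster 0, with 604 cells of tag 4 and 288 of tag 2, ratios ran from 0.781 (0.535 to 1.15) for Orai2 to 1.21 (0.912 to 1.63) for Pkd1, and no interval left out 1. In cluster 2, with 374 and 112 cells, Pkd2 alone had an interval that left out 1, at 1.35 (1.05 to 1.75). Stim1, at 0.84 over all cells, was at 0.992 (0.786 to 1.26) in cluster 0 and 0.853 (0.642 to 1.14) in cluster 2, and both intervals held 0.84. Cluster 9, where Stim1 was low, held 18.8% of cells of tag 4 and 0.402% of tag 2. The part of these shares in the ratio over all cells was not tested. Cluster 8 held 108 cells of tag 4 and 33 of tag 2, with 2 to 25 UMIs per gene in tag 2. Its levels were further apart, with Pkd2 at 61.4 CPM (49.6 to 75.1) in tag 4 against 32.9 CPM (18.8 to 53.4) in tag 2. Stim1 was at 32.7 CPM (24.2 to 43.1) against 51.4 CPM (33.2 to 75.8). Both pairs of intervals overlapped, but no ratio interval was computed in cluster 8. Overlapping intervals of 2 levels do not tell whether the interval of their ratio holds 1.

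In single cells these genes were sparse. Thinned to 5000 UMIs, the median cell had UMIs of 1 of the 10 genes, 26.7% of the 10612 cells had none of them, and no cell had more than 6. A Stim UMI was found in 32.4% of cells and an Orai UMI in 23.2%, and both in 819 cells, or 7.72% (7.22 to 8.24), where the product of the shares is 7.53%. For Stim1 and Stim2 together the share was 3.6% (3.25 to 3.97) against a product of 3.16%, and for Stim1 and Itpr1 3.77% (3.41 to 4.15) against 3.27%. Within tag 3 the pair of sensors was found in 7.62% (6.27 to 9.16) of cells against a product of 6.24%, and Pkd1 with Pkd2 in 3.08% (2.23 to 4.14) against 3.34%. In tags 1, 2 and 4 the interval of the sensor pair held the product (3.17% against 2.69%, 2.94% against 2.72% and 2.26% against 2.09%). For Stim1 with Itpr1 it did so in every tag, with 7.11% (5.8 to 8.61) against 6.43% in tag 3. The pool mixes tags of different levels, and the part of this in its shares was not tested. At about 1 gene per cell, a cell without a UMI of a gene cannot be called one without its transcript.

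Likeness of pattern was measured over 16 sets of cells of 1 tag and 1 cluster, with Pearson's r of log2(CPM + 5), for the 9 genes with at least 1000 UMIs in the pool. The sets share a library, and several share a tag, so r is a description. Stim1 was most like Fhl2 (r = 0.96), Mesd (0.93) and Actn4 (0.93), Itpr1 like Pank2 (0.94), Nsf (0.93) and Erc1 (0.92), and Pkd2 like Pcdh9, Mpzl1 (both 0.93) and Zfand5 (0.92). Itpr3 was most like 1700006J14Rik (0.93), Mapk8 (0.92) and Fbxl5 (0.88), Stim2 like Rasal2 (0.91), Cbl and Spred2 (both 0.88), and Orai1 like Smim13 (0.91), Cmas (0.89) and Drap1 (0.88). Orai2 was most like Trnau1ap (0.90), Ptgs2 (0.85) and Ppdpf (0.82), Orai3 like Abcd3 (0.88), Tspyl1 (0.85) and Cnrip1 (0.84), and Pkd1 like Ltbp3 (0.87), Ptprs (0.86) and R3hdm2 (0.84). Like genes were sought among those with at least 20 CPM in the pool. That floor leaves out Orai2 (14.4 CPM), Orai3 (10.1 CPM), Itpr3 (10.8 CPM) and Trpc6 (6.64 CPM), which therefore could not be the nearest of any gene. No other member of the set was the nearest of another. Among the 9 genes with at least 1000 UMIs, which leave out Trpc6 with its 764 UMIs, the highest r was that of Stim2 with Itpr1 (0.74). The lowest was that of Stim1 with Pkd2 (-0.65).

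Genes of the rest of the pathway gave a mixed picture. Of all genes, 11.5% were 1.5-fold higher and 12.7% lower in tag 2 against tag 1. The shares were 8.44% and 10.3% in tag 3 against tag 1, and 4.8% and 3.06% in tag 4 against tag 2. With at most 14 genes per list at 2 CPM, the counts below are not read as results about a list. Of 29 genes listed for the TRP family, which includes Trpc6, Pkd1 and Pkd2, 28 were in the table and 8 reached 2 CPM. Of these 8, 3 were higher and 0 lower in tag 2 than in tag 1: Trpc6, Pkd2l2 (8.79 against 3.73 CPM, ratio 2.35, 1.63 to 3.37) and Trpm3 (10.8 against 6.84 CPM, ratio 1.57, 1.15 to 2.13). Trpc6 was the only one past 1.5-fold in tag 3, and none was between tags 4 and 2. Trpm7, a channel with a kinase domain that carries magnesium and calcium, had the highest level of the list after Pkd2 (70.5 against 72.5 CPM in the pool) and was not told from 1 in tag 2 (1.1, 0.981 to 1.23) or tag 3 (0.984, 0.906 to 1.07). The other TRPC genes measured were below 2 CPM in the pool, among them Trpc1 (1.23 CPM), a partner of other TRPC subunits.

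Of 14 genes listed as regulators of store-operated entry, 10 reached 2 CPM. Between tags 2 and 1, 0 were higher and 2 lower: Cav1, the caveolae scaffold (56.5 against 156 CPM, ratio 0.361, 0.321 to 0.405), and Esyt1, a tether of the endoplasmic reticulum to the plasma membrane (14.2 against 24.3 CPM, ratio 0.583, 0.455 to 0.738). In tag 3 none was past 1.5-fold, and Cav1 was at 154 CPM. Esyt2, a tether with the highest level of the list (121 CPM), was at 1.3 (1.23 to 1.37) in tag 3. Between tags 4 and 2, 1 was higher, the scaffold gene Homer2 (1.61, 0.826 to 3.42, named after its value was seen). Store release and refilling had 6 of 15 genes at 2 CPM or more and none past 1.5-fold in the 3 comparisons. Calr, which binds calcium in the endoplasmic reticulum (827 CPM), was at 0.86 (0.833 to 0.888) in tag 2.

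Export and mitochondrial uptake had 8 of 11 genes at 2 CPM or more. Only Mcub, the inhibitory subunit of the mitochondrial uniporter, was past 1.5-fold, at 37.3 CPM in tag 2 against 64.3 CPM in tag 1 (0.58, 0.499 to 0.671). Smdt1, a small regulator of that uniporter, had the highest level of the list (368 CPM). Of the voltage-gated channel genes 5 of 10 reached 2 CPM, and Cacna1c, the pore of the L-type channel, had the highest level (157 CPM). Its accessory subunit Cacnb2 was higher in tag 2 (81.9 against 37.1 CPM, ratio 2.21, 1.97 to 2.47), and Cacna2d1 was higher in tag 3 (103 against 65.9 CPM, ratio 1.56, 1.46 to 1.68). Cacna1g, a T-type pore, was lower in both, at 0.562 (0.334 to 0.898) and 0.577 (0.416 to 0.79) of the level in tag 1, the shared control.

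Of the receptor and phospholipase C genes 7 of 11 reached 2 CPM, and Gnaq, the G protein subunit that couples receptors to phospholipase C, had the highest level (138 CPM). Plcb4 was lower in tag 2 (0.538, 0.444 to 0.647) and in tag 3 (0.639, 0.568 to 0.717) than in tag 1, and Plcg1 was higher in tag 2 (1.7, 1.34 to 2.14). The AngII receptor genes were both below 2 CPM in the pool. Agtr1a had 6 UMIs in tag 1, 0 in tag 2, 2 in tag 3 and 4 in tag 4, and Agtr1b had 84, 5, 44 and 17. The ratio of Agtr1b was 0.257 (0.0815 to 0.625) in tag 2 and 0.846 (0.574 to 1.23) in tag 3 against tag 1. Of 16 calmodulin and calcineurin genes 14 reached 2 CPM. Of these, 3 were higher in tag 2 than in tag 1: Mylk, the myosin light chain kinase (1.97, 1.46 to 2.65), and Rcan1 (1.9, 1.54 to 2.33) and Rcan2 (1.55, 1.21 to 1.97), which regulate calcineurin. Both Mylk and Nfatc4, a calcineurin-driven transcription factor, were lower in tag 3 (0.358, 0.238 to 0.524, and 0.544, 0.431 to 0.68), and Mylk was lower in tag 4 than in tag 2 (0.336, 0.236 to 0.479). No list had a median log2 ratio as high as the 0.50 of the 10 genes in tag 3, and that of the TRP family, which shares 3 genes with them, was 0.45. The voltage-gated list had the highest in tag 2 (0.43, against 0.30 for the 10 genes).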

How the data were processed

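The deposited values are raw UMI counts for genes and hashtags, made by the authors with Cell Ranger 4 and not filtered for cells. Their genome build was not given in the sources. Positions were looked up by Ensembl identifier in GENCODE M21 (GRCm38), which held 32158 of the 32285 identifiers. Barcodes with 2218 or more UMIs and 200 or more genes were kept as cells. A cell had a tag when only that hashtag exceeded its cutoff of 36, 52, 61 or 41 UMIs for tags 1 to 4. That left 5307 cells with no tag and 1068 with more than 1. Tag 1 separated well, with a median of 364 of its hashtag UMIs in its cells and 10 in untagged cells. Tags 2, 3 and 4 did so weakly, with 76, 113 and 67 UMIs against 15, 31 and 20.

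Counts were summed per tag and scaled to 1000000. Ratios have exact binomial 95% intervals. The simulated data they were tried on held independent Poisson counts, the kind of count the intervals assume. The spread of counts between cells and cultures was not simulated. A gene was called at 1.5-fold if its level over all cells was 2 CPM or more. No test was made, since no replicate cultures are told apart. Cells were clustered in scanpy 1.11.5 (2000 variable genes, 30 principal components, 20 neighbours, Leiden resolution 0.8). Scrublet, at an expected rate of 0.1, called 2607 cells (20%) doublets, which were kept except where stated. Named were the 10 genes, Piezo1, Piezo2, the gene of each list with the highest CPM (1 is not reported here) and up to 3 of a list with the largest ratios past 1.5-fold whose interval leaves out 1; Spp1, Itpr2, Trpc1, Agtr1a, Agtr1b and Homer2 were added after their values were seen. Alternatives changed the tag rule, the depth of cells, mitochondrial and doublet filters, sex, scaling and fold. The 10 genes and the lists were chosen with earlier results of these data known.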

Additional observations from a re-analysis of the deposited data

Results flagged for a closer look

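Cells outside the tagged sets held Trpc6 as well. The 5307 cells without a tag, which enter no comparison, had 354 Trpc6 UMIs, or 8.61 CPM (7.74 to 9.56), above the 1.87 CPM (1.36 to 2.5) of tag 1 and the 3.82 CPM (1.65 to 7.52) of near-empty barcodes. By cluster, 2016 of these cells were in cluster 0 and 1272 in cluster 2, the clusters that tags 2 and 4 share. The group these cells came from was not tested.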

How the results depend on the processing

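Of 300 member ratios recomputed under alternatives, 275 stayed within the interval of the value reported, 25 moved outside it, and none of those past 1.5-fold changed direction. Of 360 family shares 334 stayed and 26 moved. At a 2-fold threshold 1 gene was higher in tag 2 and 1 in tag 3 than in tag 1, Trpc6 in both. For this and the following counts of members, the share of all genes under the same alternative was not computed, so they have no background beside them. In tag 2 the count of 3 higher was the same under every other alternative. In tag 3 the count of 5 higher became 3 with at least 5000 UMIs per cell, 2 with scaling by the median ratio, 4 under both other tag rules and 7 among cells with only Y-linked UMIs. Between tags 4 and 2, 1 gene was lower when the own tag had to be 3 times the next (Orai2, 0.644), 1 was higher at 2 times the cutoffs (Pkd1, 1.5), and 2 were lower among the 211 and 97 cells with only Y-linked UMIs (Orai2, 0.577, and Orai3, 0.631). The Trpc6 ratio ran from 4.72 to 12.7 in tag 2 and from 2.04 to 6.6 in tag 3; with tag 1 in its own clusters and tags 2 to 4 outside them, an alternative chosen after seeing the data, it was 8.47 and 4.41. Among genes at 20 CPM or more, a floor that the 3 genes higher in tag 2 do not reach, the share of all genes higher in tag 2 was 7.49%, and between tags 4 and 2 the shares higher and lower were 1.32% and 0.71%. Except where the alternative's smaller sets of cells show it, the cause was not tested. No paired analysis was possible because the result comes from no test and no replicate cultures are told apart.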
